A study of Mus musculus with 4 samples.

Results

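Chemokines are small secreted proteins that direct the migration of leukocytes, and 10 of their genes were followed here in 4T07, a cell line from a mammary carcinoma of Balb/cfC3H mice. The 10 were chosen by symbol from the deposited table of 24421 genes: Cxcl1, Cxcl5, Cxcl10, Cxcl12, Cxcl16, Cx3cl1, Ccl2, Ccl5, Ccl7 and Ccl9, and all 10 were in it. The groups compared had 2 libraries each, 4T07 cells labelled as overexpressing the homeobox factor Six2 and 4T07 control cells (CTL). Both groups were grown in the same calf serum medium and harvested 48 hours after plating, and the labels name neither the vector nor whether the cells were a clone or a pool. Values are RPKM as deposited, read counts scaled to gene length and to the read total of the library, so levels of different genes can be compared per length. The labels do not say whether replicates were separate cultures. The p-values set each group difference against the scatter between these libraries, pooled in part across genes, and that scatter may be technical.

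The read totals recovered from the steps of the values were 49910629 and 81524250 in the libraries labelled Six2 and 43110985 and 41881864 in the CTL libraries. Six2 itself was at 0.0285 RPKM in Six2 replicate 1 and listed at 0 in the other 3 libraries, so overexpression of Six2 is not visible in these values and the groups are called by their labels. Whether reads of a transgene would have been counted to Six2 is not given in the sources used here. Of the epithelial markers Krt8 and Krt18 were abundant, at 389 RPKM or more in every library, and overlapped between the groups. Epcam was low, at 0.214 and 0.0833 RPKM in the libraries labelled Six2, against 0.720 and 0.684 RPKM in CTL libraries. Cdh1 was at 0.186 and 0.103 RPKM in the libraries labelled Six2, against 14.6 and 8.40 RPKM in CTL libraries.

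Chemokines are grouped by the spacing of their first cysteines into CXC, CC and CX3C types, and they act through G protein-coupled receptors on the target cell. In tumours, CXC ligands of the receptor CXCR2 attract neutrophils, CC ligands of CCR2 attract monocytes, and ligands of CXCR3 attract T cells. The ligands encoded by Cxcl16 and Cx3cl1 are made as transmembrane proteins and released by metalloproteases. Many chemokine genes are switched on by NF-kB and by interferon signalling.

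Of the 10 genes, 7 reached 1 RPKM in at least 2 libraries and were tested; Cxcl10, Cxcl12 and Ccl7 did not. None of the 7 passed limma-trend at a Benjamini-Hochberg adjusted p under 0.05 over all 10654 genes tested, where 12 genes, or 0.113%, passed. At an unadjusted p under 0.05, 1 of the 7 was higher (Cx3cl1) and 2 were lower (Cxcl1 and Ccl9) in the libraries labelled Six2, against 7.36% of all genes tested that were higher and 9.66% that were lower. In 4 of the 7 the groups did not overlap, with Cx3cl1 higher, against 21.9% of all genes tested, and Cxcl1, Cxcl16 and Ccl9 lower, against 25.5% (47.4% in either direction). With voom on recovered reads 0 of the 7 passed, against 0.122% of all genes. The count of 12 was 35 without Six2 replicate 1, 68 without Six2 replicate 2 and 31 without CTL replicate 2, with 0 of the 7 each time. In a fit with the replicate number as a block 43.5% of all genes passed (48% with voom), and so did 6 of the 7, but the labels do not say what a number marks. The median difference of the 7 was -0.77 in log2(RPKM + 1), a scale on which differences of low genes come out too small, and that of all genes tested was -0.01. Ccl9 passed the minimum only through its CTL libraries, so it had to be lower in the others, and counts and medians over the 7 are a description, not support for a shift.

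**Figure D1:**
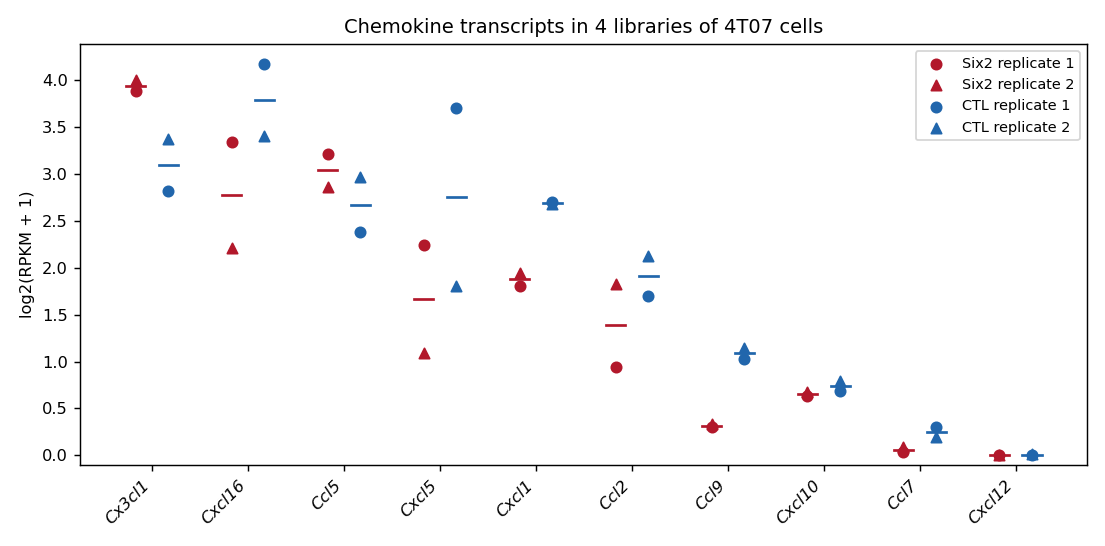
Level of each chemokine gene in each of the 4 libraries, as log2(RPKM + 1), with circles for replicate 1 and triangles for replicate 2, genes ordered by mean level; points are libraries and short lines are group means (n = 2). Cx3cl1 is higher in both libraries labelled Six2, whereas Cxcl1, Cxcl16 and Ccl9 are lower in both.

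Upstream sequences are shown for 3 genes, Cxcl1 and Ccl9, which had the smallest standard errors among the 7 tested, and Cxcl10, the textbook interferon target among the 10. They are the bases before the RefSeq transcription start on GRCm38.p6, written 5′ to 3′ on the gene's strand, without bases in an annotated exon of the gene. Capitals mark matches to 3 motifs chosen after the sequences were seen, each searched on both strands. They are a kappaB-like motif (GGG and TTCC with 3 bases of any kind between), an interferon response-like motif (GAAA and GAAA with 2 bases of any kind between) and TATAAA.
Cxcl1, chr5:90890995-90891240, plus strand: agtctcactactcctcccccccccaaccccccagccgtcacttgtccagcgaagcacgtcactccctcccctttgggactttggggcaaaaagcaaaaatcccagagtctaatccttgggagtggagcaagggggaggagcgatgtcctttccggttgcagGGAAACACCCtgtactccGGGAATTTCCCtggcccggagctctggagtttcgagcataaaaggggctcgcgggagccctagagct
Ccl9, chr11:83578637-83578886, minus strand: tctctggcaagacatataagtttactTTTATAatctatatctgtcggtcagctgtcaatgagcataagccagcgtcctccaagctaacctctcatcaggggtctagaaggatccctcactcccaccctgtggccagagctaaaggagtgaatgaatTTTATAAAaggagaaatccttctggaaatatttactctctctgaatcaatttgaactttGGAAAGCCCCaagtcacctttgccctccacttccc
Cxcl10, chr5:92348890-92349139, minus strand: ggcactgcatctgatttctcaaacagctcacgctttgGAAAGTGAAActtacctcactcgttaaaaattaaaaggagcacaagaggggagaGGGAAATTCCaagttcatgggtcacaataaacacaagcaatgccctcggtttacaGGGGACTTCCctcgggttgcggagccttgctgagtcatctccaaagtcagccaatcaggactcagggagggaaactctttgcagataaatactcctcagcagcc

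The kappaB-like motif occurred in 4.65% of 32851 RefSeq windows of 250 bases before a start, the interferon response-like motif in 2.98% and TATAAA in 12.4%. Cxcl1 held 3 kappaB-like matches, 2 of which overlap in a stretch that begins 71 bases before the start. Cxcl10 held 2 kappaB-like matches and the interferon response-like match, which begins 213 bases before the start. Ccl9 held 1 kappaB-like match, 35 bases before the start, and 3 matches to TATAAA, 2 of which overlap. In the windows of Cx3cl1 and Cxcl12 neither the kappaB-like nor the interferon response-like letters were found. Cx3cl1 had TATAAA in the 6 bases before its RefSeq start. An annotated exon of Cx3cl1 begins after the first 79 bases of its window, so that match lies past the annotated start of the gene. These matches describe letters and show no binding. Cxcl5, Cxcl16, Ccl2, Ccl5 and Ccl7 had no entry in the promoter table.

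Among the CXCR2 ligands, Cxcl1 (ENSMUSG00000029380.11, GRCm38 chromosome 5, 90891241 to 90893115, plus strand) encodes a neutrophil attractant. It was at 2.49 and 2.86 RPKM in the libraries labelled Six2, against 5.48 and 5.41 RPKM in CTL libraries. Both libraries labelled Six2 lay below both CTL libraries, and the CTL pair differed by little. The mean was 2.67 ± 0.258 RPKM against 5.44 ± 0.0465 RPKM (SD, n = 2 each), a ratio of 0.491. On the log2 scale the difference was -0.81 (SE 0.12, 95% interval -1.13 to -0.50), and it did not pass over all genes (limma-trend adjusted p = 0.107). Leaving out any 1 library left it between -0.88 and -0.74.

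Cxcl5 (ENSMUSG00000029371.7, chromosome 5, 90759360 to 90761624, plus strand), a neighbouring gene in the same cluster, encodes another CXCR2 ligand. It was at 3.74 and 1.13 RPKM in the libraries labelled Six2, against 11.96 and 2.49 RPKM in CTL libraries. The groups overlapped, since CTL replicate 2 lay below Six2 replicate 1, and replicate 2 was the lower library in both groups. The difference of -1.08 on the log2 scale had an SE of 0.76, a 95% interval of -3.12 to 0.95 and a limma-trend adjusted p of 0.538. Leaving out CTL replicate 1 gave -0.14 and leaving out CTL replicate 2 gave -2.03. Leaving out Six2 replicate 1 gave -1.66 and leaving out Six2 replicate 2 gave -0.51. Cxcl1 and Cxcl5 were both lower on average, with little spread for Cxcl1 and much for Cxcl5.

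Cxcl3, a further CXCR2 ligand gene that is not among the 10, was at 2.46 and 1.30 RPKM in the libraries labelled Six2, against 5.67 and 3.05 RPKM in CTL libraries (log2 difference -0.88, SE 0.33, limma-trend adjusted p = 0.298). Cxcl2, named after its values were seen, lay below the minimum for the test at 0.944 and 0.872 RPKM, against 1.11 and 0.970 RPKM. Both genes lay apart by group and lower in the libraries labelled Six2, as did 25.5% of all genes tested. Ppbp, a further listed ligand gene below the minimum and also named after its values were seen, overlapped. Its level was 0.352 and 0.136 RPKM in the libraries labelled Six2, against 0.515 and 0.155 RPKM in CTL libraries.

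Of the transmembrane chemokine genes, Cx3cl1 had the higher mean and Cxcl16 the lower mean in the libraries labelled Six2, and neither passed the test over all genes. Cx3cl1 (ENSMUSG00000031778.13, chromosome 8, 94772009 to 94782427, plus strand) encodes fractalkine, an adhesion and attractant protein for cells with CX3CR1. It was at 13.7 and 14.9 RPKM in the libraries labelled Six2, against 6.04 and 9.30 RPKM in CTL libraries. The libraries lay apart, with the CTL pair the more spread. The means were 14.3 ± 0.862 and 7.67 ± 2.30 RPKM (SD, n = 2 each), a ratio of 1.87. The log2 difference was 0.85 (SE 0.21, 95% interval 0.28 to 1.42; limma-trend adjusted p = 0.186), and it ranged from 0.57 without CTL replicate 1 to 1.12 without CTL replicate 2.

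Cxcl16 (ENSMUSG00000018920.11, chromosome 11, 70453983 to 70459984, minus strand) encodes the ligand of CXCR6. It was at 9.13 and 3.62 RPKM in the libraries labelled Six2, against 17.04 and 9.60 RPKM in CTL libraries. The groups lay apart only narrowly, since Six2 replicate 1 and CTL replicate 2 were close, and replicate 2 was the lower library in both groups. The difference was -1.02 (SE 0.47, 95% interval -2.29 to 0.26; limma-trend adjusted p = 0.374). Leaving out Six2 replicate 1 gave -1.58 and leaving out Six2 replicate 2 gave -0.45. Leaving out CTL replicate 1 gave -0.63 and leaving out CTL replicate 2 gave -1.40. Cxcl16 shares 552 annotated exon bases with Zmynd15 on the other strand, and the strand setting of the counting is not given, so part of its reads could belong to that gene.

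The gene of highest level was Cx3cl1 in both libraries labelled Six2 and Cxcl16 in both CTL libraries. In CTL replicate 2 they were close, with Cxcl16 at 9.60 RPKM and Cx3cl1 at 9.30 RPKM. Cx3cl1 made up 35.1% and 46.2% of the summed RPKM of the 10 genes in the libraries labelled Six2, against 12.4% and 23.8% in CTL libraries. Cxcl16 made up 23.4% and 11.2% in the libraries labelled Six2, against 34.9% and 24.6% in CTL libraries. The sums themselves were 39.1 and 32.3 RPKM in the libraries labelled Six2, against 48.8 and 39.1 RPKM in CTL libraries, so Six2 replicate 1 and CTL replicate 2 were nearly equal.

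Among CC chemokines, Ccl9 (ENSMUSG00000019122.8, chromosome 11, 83572919 to 83578636, minus strand) encodes a mouse ligand of CCR1 that attracts myeloid cells. It was at 0.233 and 0.257 RPKM in the libraries labelled Six2, or 35 and 63 reads, against 1.03 and 1.21 RPKM in CTL libraries, or 134 and 153 reads. The groups were well apart with little spread within each, and the ratio of means was 0.218. Only its CTL libraries reached the minimum for the test, so the direction was fixed by the filter. The log2 difference was -0.77 (SE 0.14, 95% interval -1.13 to -0.40; limma-trend adjusted p = 0.141). The size depends on the scale for so low a gene, being -1.82 with a pseudocount of 0.1 (adjusted p = 0.127) and -2.17 with voom on recovered reads (adjusted p = 0.0795), and adjusted p ranged from 0.0795 to 0.408 over the settings without a replicate term.

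Ccl2 (ENSMUSG00000035385.5, chromosome 11, 82035571 to 82037453, plus strand) encodes a monocyte attractant that binds CCR2. It was at 0.920 and 2.56 RPKM in the libraries labelled Six2, against 2.24 and 3.35 RPKM in CTL libraries. The groups overlapped, and replicate 2 was the higher library in both. The difference was -0.52 (SE 0.35, 95% interval -1.47 to 0.42; limma-trend adjusted p = 0.524). Leaving out Six2 replicate 1 gave -0.08 and leaving out Six2 replicate 2 gave -0.97. Leaving out CTL replicate 1 gave -0.73 and leaving out CTL replicate 2 gave -0.31.

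Ccl7 (ENSMUSG00000035373.2, chromosome 11, 82045712 to 82047525, plus strand), next to Ccl2 and likewise a CCR2 ligand gene, was barely detected. It had 1 and 4 reads in the libraries labelled Six2, against 8 and 5 reads in CTL libraries. Scaled by the read totals the ratio was 0.249, with an exact 95% interval of 0.0694 to 0.743 that covers counting error only. In RPKM these were 0.0251 and 0.0614 against 0.232 and 0.149. With no filter on low values the log2 difference of -0.19 (SE 0.04) did not pass (limma-trend adjusted p = 0.227).

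Ccl5 (ENSMUSG00000035042.2, chromosome 11, 83525778 to 83530518, minus strand) encodes an attractant of T cells and monocytes. It was at 8.26 and 6.26 RPKM in the libraries labelled Six2, against 4.19 and 6.79 RPKM in CTL libraries. The groups overlapped, CTL replicate 2 lying between the libraries labelled Six2. The difference was 0.37 (SE 0.25, 95% interval -0.31 to 1.04; limma-trend adjusted p = 0.532). Leaving out CTL replicate 1 gave 0.07 and leaving out CTL replicate 2 gave 0.66. Leaving out Six2 replicate 1 gave 0.19 and leaving out Six2 replicate 2 gave 0.54.

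Cxcl10 (ENSMUSG00000034855.13, chromosome 5, 92346638 to 92348889, minus strand) encodes an interferon-induced ligand of CXCR3. It was at 0.546 and 0.602 RPKM in the libraries labelled Six2, or 30 and 54 reads, against 0.612 and 0.738 RPKM in CTL libraries, or 29 and 34 reads. The libraries lay apart by a small margin. Scaled by the read totals, the ratio of summed reads was 0.862, with an exact 95% counting interval of 0.615 to 1.21, which holds equality. It shares 133 annotated exon bases with Art3 on the other strand. Cxcl12 (ENSMUSG00000061353.11, chromosome 6, 117168535 to 117181367, plus strand), the stromal ligand of CXCR4, had 1 and 0 reads in the libraries labelled Six2 and 0 and 4 reads in CTL libraries. Scaled by the read totals, the ratio was 0.162 with an exact 95% counting interval of 0.00328 to 1.63, and at this depth no difference was detectable.

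**Figure D2:**
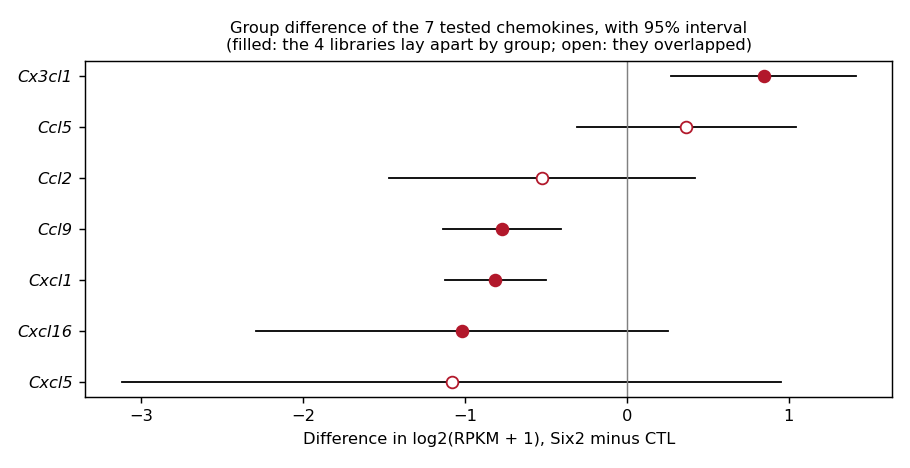
Difference in log2(RPKM + 1) between the libraries labelled Six2 and the CTL libraries for the 7 tested genes, with 95% intervals from limma-trend (n = 2 each). The intervals of Cx3cl1, Ccl9 and Cxcl1 lie off 0, those of Ccl5, Ccl2, Cxcl16 and Cxcl5 include it, and none of the 7 passed adjusted over all genes. Ccl9 reached the minimum only through its CTL libraries, so its direction was fixed by the filter.

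By mean RPKM the order in the libraries labelled Six2 was Cx3cl1, Ccl5, Cxcl16, Cxcl1, Cxcl5, Ccl2, Cxcl10, Ccl9, Ccl7 and Cxcl12. Among those neighbours, Ccl5 and Cxcl16, Cxcl1 and Cxcl5, and Cxcl5 and Ccl2 overlapped between libraries. In CTL libraries it was Cxcl16, Cx3cl1, Cxcl5, Ccl5, Cxcl1, Ccl2, Ccl9, Cxcl10, Ccl7 and Cxcl12, and the libraries of Cx3cl1 and Cxcl5, Cxcl5 and Ccl5, and Ccl5 and Cxcl1 overlapped. Ccl9 stood below Cxcl10 in the libraries labelled Six2 and above it in CTL libraries. Chromosome-wide shifts were small where the 10 genes lie, the median log2 difference of tested genes being -0.05 on chromosome 11, -0.04 on chromosome 5, -0.09 on chromosome 6 and 0.06 on chromosome 8.

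**Figure D3:**
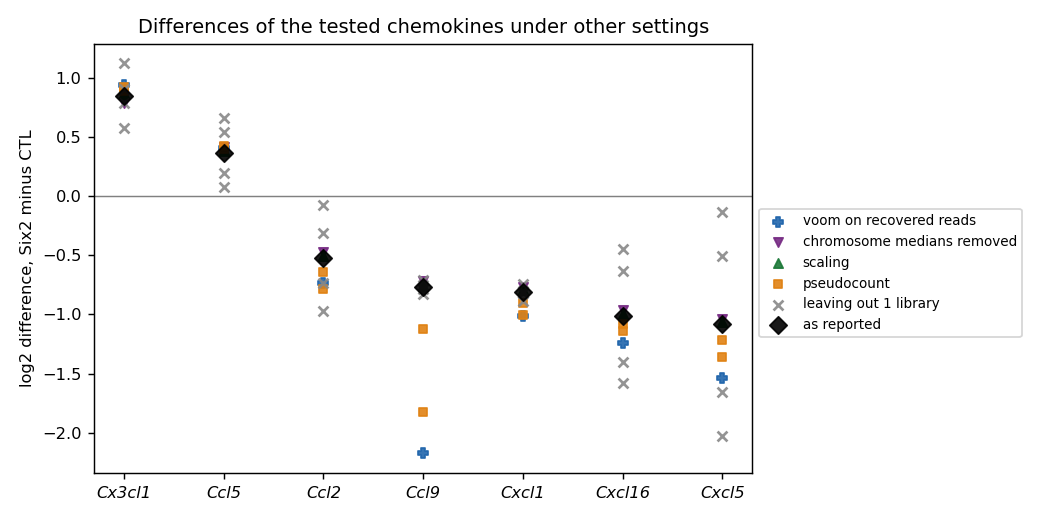
Difference in log2 value, libraries labelled Six2 minus CTL libraries, for the 7 tested genes under the settings without a replicate term that can move the value. Signs are the same throughout, but leaving out 1 library brings Cxcl5 to -0.14, Ccl2 to -0.08 and Ccl5 to 0.07, and Ccl9 moves with the pseudocount.

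Of 28 other mouse chemokine ligand genes, 11 were above 0 in any library and 2 were tested, Cxcl3 and Ccl25, of which 0 passed limma-trend adjusted over all genes and 0 had an unadjusted p under 0.05. Ccl25, which encodes a ligand of CCR9, was at 2.42 and 1.93 RPKM in the libraries labelled Six2, against 3.46 and 2.72 RPKM in CTL libraries (log2 difference -0.36, SE 0.16, limma-trend adjusted p = 0.355).

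Receptor transcripts for the 10 ligands were low in these cells. Of 18 chemokine receptor genes 1 was tested, Cxcr3, the receptor of CXCL10, at 3.001 and 0.968 RPKM in the libraries labelled Six2, against 1.12 and 0.742 RPKM in CTL libraries (log2 difference 0.54, SE 0.38, limma-trend adjusted p = 0.537). The other receptors are named because they bind the 10 ligands, after their values were seen. Cxcr2 was at 0.803 and 0.891 RPKM in the libraries labelled Six2, against 0.8004 and 1.12 RPKM in CTL libraries. Cxcr4 and Cxcr6 had 0 reads in all 4 libraries, a count that allows up to 3 reads in each. Ccr2 had at most 1 read, and Ccr1 and Cx3cr1 at most 7 reads, in any library. Of the 5 atypical receptor genes that were listed, 1 was tested and 0 passed. Ackr3, a scavenging receptor of CXCL12, was at 1.62 and 1.45 RPKM in the libraries labelled Six2, against 3.98 and 1.89 RPKM in CTL libraries (log2 difference -0.58, SE 0.29, limma-trend adjusted p = 0.403).

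Of 9 genes listed for the release or trimming of chemokines, including the inhibitor gene Timp3, 7 were tested. With limma-trend 0 passed over all genes, and 3 differences were above 0 and 4 below 0, with a median of -0.03. At an unadjusted p under 0.05, 1 was higher and 1 lower, beside 7.36% higher and 9.66% lower of all genes tested. The lower one, Timp3, reached the minimum only through its CTL libraries, so it had to be lower in the others. Adam17, which encodes a protease that can shed fractalkine, was at 22.9 and 22.2 RPKM in the libraries labelled Six2, against 17.3 and 18.4 RPKM in CTL libraries (log2 difference 0.32, SE 0.10, limma-trend adjusted p = 0.226). Adam10, of the same list and named after its values were seen, overlapped between the groups. Its level was 47.3 and 41.7 RPKM in the libraries labelled Six2, against 45.5 and 38.4 RPKM in CTL libraries. Timp3, which encodes an inhibitor of ADAM17, was at 0.398 and 0.0550 RPKM in the libraries labelled Six2, against 5.37 and 2.99 RPKM in CTL libraries (log2 difference -2.05, SE 0.29, limma-trend adjusted p = 0.105). Mmp14, which encodes a membrane protease, was at 64.2 and 67.5 RPKM in the libraries labelled Six2, against 79.6 and 73.6 RPKM in CTL libraries (limma-trend adjusted p = 0.361).

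Of 23 NF-kB pathway genes, all were tested and 0 passed limma-trend over all genes. At an unadjusted p under 0.05, 1 was higher and 3 were lower, a share near the 17% of all genes tested, and the median difference was -0.12. The 3 of smallest p were lower and lay apart by group. Among the 23, 4 lay apart and higher and 7 apart and lower, near the 21.9% and 25.5% of all genes tested. The target Birc3 was at 1.40 and 1.38 RPKM in the libraries labelled Six2, against 2.87 and 2.72 RPKM in CTL libraries (limma-trend adjusted p = 0.139). Tnfaip3, a feedback inhibitor and target, was at 2.33 and 3.39 RPKM in the libraries labelled Six2, against 5.19 and 7.05 RPKM in CTL libraries (adjusted p = 0.179). Rela, which encodes the p65 subunit, was at 22.3 and 22.5 RPKM in the libraries labelled Six2, against 29.8 and 27.7 RPKM in CTL libraries (adjusted p = 0.205). The inhibitor gene Nfkbia, named after its values were seen, went the other way, at 37.1 and 30.4 RPKM in the libraries labelled Six2, against 25.4 and 20.5 RPKM in CTL libraries (adjusted p = 0.233).

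Interferon-stimulated and interferon pathway genes were mixed, with 17 of 22 tested, a median of -0.18 and 0 passing limma-trend over all genes. Of the 17, 5 were above and 12 below 0, beside 5100 above and 5554 below 0 of all 10654 genes tested. Of the same 17, 3 lay apart and higher and 8 apart and lower, beside 21.9% and 25.5% of all genes tested. The list was not tested as a set. At an unadjusted p under 0.05, 2 were higher and 3 lower, beside 7.36% higher and 9.66% lower of all genes tested. Isg15, a ubiquitin-like modifier, was at 22.8 and 17.9 RPKM in the libraries labelled Six2, against 9.27 and 8.62 RPKM in CTL libraries (limma-trend adjusted p = 0.102). Irf1, an interferon-induced transcription factor, was at 9.89 and 9.55 RPKM in the libraries labelled Six2, against 16.4 and 15.7 RPKM in CTL libraries (limma-trend adjusted p = 0.108).

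Of 12 cytokine genes often induced with chemokines, 6 were tested and 0 passed limma-trend over all genes, with a median of -0.30. At an unadjusted p under 0.05, 1 was higher and 0 lower, beside 7.36% higher and 9.66% lower of all genes tested. Il33, an alarmin of the interleukin-1 family, was at 22.9 and 21.1 RPKM in the libraries labelled Six2, against 3.79 and 5.61 RPKM in CTL libraries (log2 difference 2.03, SE 0.19, limma-trend adjusted p = 0.0726). Tslp, an epithelial alarmin, was at 753 and 504 RPKM in the libraries labelled Six2, against 403 and 434 RPKM in CTL libraries (adjusted p = 0.309). Lif, a cytokine of the interleukin-6 family, was at 3.93 and 5.61 RPKM in the libraries labelled Six2, against 6.28 and 6.58 RPKM in CTL libraries (adjusted p = 0.373).

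**Figure D4:**
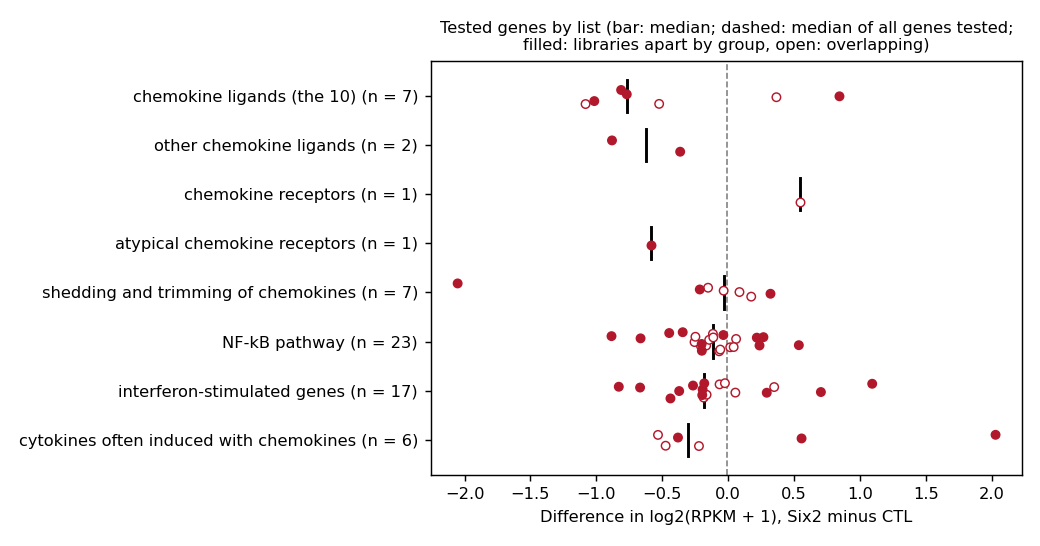
Difference in log2(RPKM + 1), libraries labelled Six2 minus CTL libraries, of every tested gene in each list; bars are list medians and the dashed line is the median of all genes tested. The chemokine median is -0.77, the dashed line lies at -0.01 and the NF-kB list median is -0.12. The chemokine median is the value of Ccl9, which reached the minimum only through its CTL libraries. That median is a description, not support for a shift.

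Markers of other cell types were low, with Cd68 and Pdgfra the exceptions. Of 9 leukocyte markers in the table, 3 were at 0 in all libraries and 1, the lysosomal gene Cd68, reached 1 RPKM. Their summed level ran between 5.02 and 9.29 RPKM in the libraries labelled Six2, against 7.63 and 12.5 RPKM in CTL libraries, and the leukocyte gene Ptprc was at 0.0043 RPKM or less in every library. Of 7 fibroblast markers 1 reached 1 RPKM, Pdgfra, and 2 were at 0, the sum lying between 5.18 and 7.44 RPKM in the libraries labelled Six2, against 5.28 and 9.92 RPKM in CTL libraries. No endothelial marker of 5 reached 1 RPKM, and their sum was at most 0.0479 RPKM in the libraries labelled Six2, against at most 0.157 RPKM in CTL libraries. The part of other cells in the chemokine values was not tested, and fewer expressing cells and less RNA per cell cannot be told apart in bulk RNA.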

How the data were processed

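Polyadenylated RNA of 4 samples was sequenced after stranded library preparation, per the labels' protocols. Per the submitters' processing notes, tools included HTSeq 0.8.0, Picard 2.9.4, SAMtools 1.5, Bowtie2, TopHat2 2.1.1, FastQC 0.11.5 and bcl2fastq 1.8.4, and builds were mm10 and GRCm38. The authors deposited RPKM values for 24421 genes, with no further scaling stated. How shared reads were handled, and which annotation, gene lengths and strand setting were used, is not given in the sources read.

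Read totals and whole reads were recovered from the steps of the RPKM values. They were whole within 0.001 for 14458 of the 14459 genes with values above 0 in at least 3 libraries. Reads and length could share a hidden factor, but doubling the length would exceed the annotated exons for 9 of the 10 chemokines, Cxcl10 being the exception. Counting intervals and the 3-read limit of a count of 0 cover counting error only.

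limma 3.58.1 in R 4.3.3 fitted log2(RPKM + 1) on group with a mean-variance trend (limma-trend), two-sided, for genes with a minimum of 1 RPKM in any 2 libraries, with Benjamini-Hochberg adjustment over all genes. A single-gene exact permutation test of 2 against 2 libraries cannot go below p = 0.333. The fit was tested on simulated reads without a replicate effect, so that test does not cover the replicate pattern of these libraries. The members and lists were chosen with earlier results of these data known. The named genes are the 10, Six2 and, of each list, those that passed or the 3 tested genes of smallest unadjusted p. For receptor lists, all tested genes are named. A gene that this rule names in the interferon list is not reported here. Coordinates are from GENCODE M21, and upstream sequences from RefSeq on GRCm38.p6.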

Additional observations from a re-analysis of the deposited data

How the results depend on the processing

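The 7 tested chemokines kept their sign under every alternative run: pseudocounts of 0.1 and 0.5, no filter, a CPM filter, 2 scalings, chromosome medians removed, leaving out each library, voom and the fits with a replicate term. None passed except in those last fits, and adjusted p elsewhere ranged from 0.0795 to 0.974. Over all genes the count of calls was 12. It was 0 with no filter (limma-trend, 2503 genes at an unadjusted p under 0.05; smallest adjusted p = 0.0519), 33 with a filter of 1 CPM of recovered reads in 2 libraries, and between 11 and 68 with 1 library left out, where the chemokine count was 0 each time. The difference of replicate 2 from replicate 1 correlated at r = 0.818 between the groups across 10654 genes, which are not independent replicates. With the replicate block 4639 genes (43.5%) passed, and 6 of the 7 chemokines, Cx3cl1 higher and Cxcl1, Cxcl5, Cxcl16, Ccl2 and Ccl9 lower. With voom on recovered reads, added after seeing the data, 13 genes and 0 chemokines passed, and with the replicate block 5114 genes (48%) and 6 chemokines. Ccl5 was the tested chemokine that passed in neither (adjusted p = 0.147 and 0.160). The cause of these changes was not tested. The edgeR and DESeq2 alternatives were not run, since the deposited values are RPKM. With 1 library left out, the lone library of a group is assumed to vary like the others. Depth limits Ccl7 and Cxcl12, at 8 reads or fewer in every library.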
